A study of Homo sapiens with 6 samples.

Results

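Cadherins are calcium-dependent adhesion proteins that hold neighbouring cells together by binding across the gap between them. Classic cadherins couple this adhesion to actin through catenins, and E-cadherin (*CDH1*) and N-cadherin (*CDH2*) are often used as markers of epithelial and mesenchymal states. Clustered protocadherins lie in 3 gene clusters in which each variable exon has its own promoter. Cells switch on different combinations of these promoters and carry a surface identity that neurons use in self-recognition. The nonclustered delta protocadherins regulate adhesion, cell sorting and actin, partly by recruiting the WAVE complex.

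Here 39 cadherin and protocadherin genes were described in RNA-seq libraries of HEK293, a human embryonic kidney cell line. They were chosen as gene symbols made of CDH and a number or starting with PCDH, with at least 10 counts in 3 or more of the 6 cultures, and without pseudogenes, antisense names and *PCDH11Y*. Of 88 such genes listed among 26485 gene names, 49 did not reach this threshold, while 14995 genes of the whole table met it. The 39 members comprised 8 classic cadherins, 3 other CDH genes, 19 of 53 clustered protocadherins and 9 of 12 nonclustered protocadherins.

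The study asked which genes respond when the long noncoding RNA *HSALNG0134318*, encoded in 22q11.2, is reduced. The 3 knockdown cultures (KD-1, KD-4 and KD-5, here knockdown replicates 1 to 3) were transiently transfected with a Smart Silencer, which combines siRNAs and antisense oligonucleotides directed at *HSALNG0134318*. The 3 control cultures (NC-10, NC-11 and NC-1, here control replicates 1 to 3) were HEK293 cells whose genotype is given as WT, and the sources used here do not say what they were transfected with. The cultures received no other labelled treatment, and the study's methods describe the knockdown experiments as biologically independent. No row of the table carries the name of *HSALNG0134318*, so its reduction was not analysed here.

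The libraries held 13900965 to 16869948 counts on genes, of which 10688 to 12165 fell on the 39 members. All 10 HEK293 markers were expressed, of which *LIN28B* was lower in knockdown cultures (log2 fold change -0.47, adjusted p = 0.030, a call lost on leaving out any culture but control replicate 2, with adjusted p up to 0.13). Endothelial markers reached at most 16 counts in any culture. Of 8 blood markers, *CD3E* and *HBB* had 0 counts in every culture, and the highest count of the list was 25, for *CD14*, which overlapped between the groups. *CD74* had 20, 20 and 15 counts in knockdown and 12, 10 and 5 in control cultures and was not called (log2 fold change 1.08, adjusted p = 0.10). Summed fibroblast markers overlapped between the groups, at 709 to 1063 normalized counts in knockdown and 641 to 888 in control cultures, and most of these counts were *COL1A1*. Over all genes tested, control replicate 2 stood apart from the other controls, with a root mean square log2 distance of 0.445 and 0.485 to them. The knockdown cultures were 0.271 to 0.315 from each other. Over the tested members alone it did not stand apart, at 0.461 and 0.454 to the other controls, which were 0.549 from each other. Because of the distance over all genes, the 3 members that were called are also given without control replicate 2. Across all 14877 genes tested, 690 were lower and 804 higher in knockdown cultures at an adjusted p under 0.05.

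Most clustered protocadherin promoters are known to share a short element with the core letters CGCT. In each promoter, the CGCT most like the rest of its cluster was taken. It need not belong to the shared element. The 30 bases around it are shown for 7 clustered members. These are *PCDHGC4*, the only clustered gene called, and its neighbour *PCDHGC3*. The others are the members with the most counts in the beta, gamma A and gamma B groups, and both alpha members. They are shown so that the letters can be set beside the values. Promoters came from RefSeq on GRCh38.p14 (hg38), which had an entry for 47 of the 53 clustered genes and 31 of the 39 members. Each stretch runs 5′ to 3′ on the plus strand of chromosome 5, and capitals mark the CGCT.
PCDHA10: agccaccggatgtCGCTgtcgtccacaaaa
PCDHAC2: agcagtccgggttCGCTgtccgccacttcg
PCDHB2: agacgcggggtggCGCTgcagccttagaag
PCDHGA11: gggctctaggcgcCGCTgctcaccaatcag
PCDHGB5: tgactctgggcgcCGCTgttggccaaagtg
PCDHGC3: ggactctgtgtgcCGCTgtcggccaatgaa
PCDHGC4: tgagcccgggagcCGCTgtctgccaatcgg

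The *PCDHGC4* stretch lies at chr5:141484955-141484984, with its CGCT starting 62 bases before the transcription start. That of *PCDHGC3* lies at chr5:141475883-141475912, with its CGCT 70 bases before the start. The stretches of *PCDHGB5* (chr5:141397866-141397895) and of *PCDHGB4*, which stayed below the count threshold, had the same 30 letters. *PCDHA10* (chr5:140855844-140855873), *PCDHAC2* (chr5:140966368-140966397), *PCDHB2* (chr5:141094547-141094576) and *PCDHGA11* (chr5:141420975-141421004) had the CGCT 40, 95, 55 and 63 bases before the start. Each stretch was compared with the most frequent letter at each place among the promoters of its own cluster. *PCDHGC3* had 24 of 30 letters in common, *PCDHGC4* had 21 and *PCDHAC2* had 17, each count including CGCT itself. The stretch of *PCDHAC2* was thus the least like its cluster among those shown. Whether *PCDHGC4* and *PCDHAC2* carry the shared element was not tested.

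Searched on both strands of the 300 bases around each start, CGCT was found in 46 of 47 clustered promoters and in 68.8% of 27305 promoters in all, so these 4 letters alone are common. The longer strings, chosen after the promoters were read and each containing CGCT, were rarer. GATGTCGCT occurred in 9 of 13 alpha promoters and 0.114% of all promoters. GGTGGCGCT occurred in 13 of 14 beta promoters and 0.524% of all, and GCCGCTGTT in 7 of 20 gamma promoters and 0.319% of all. GGGGGC, found in 36.9% of all promoters, was present in 1 of the 47 clustered promoters, and TATAAA was present in 6 of them, or 12.8%, against 12.1% of all. These matches describe letters and were not tested for use.

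Of the 39 members, 37 passed the filter on low counts and were tested (*PCDHB14* and *PCDHGA5* did not), and 3 were called, which was 1 lower and 2 higher. *PCDHGC4*, a gamma C protocadherin, fell, and the delta 2 protocadherins *PCDH10* and *PCDH19* rose. Over all genes tested 10% were called, 4.64% lower and 5.40% higher, so the members were not called more often than genes at large. The unadjusted p was under 0.05 for 7 members, 2 lower and 5 higher, against 26.9% of all genes (13.8% lower and 13.1% higher). The 3 knockdown and 3 control values did not overlap for 13 of the 37, with 9 above and 4 below the controls, against 32.2% of all genes (16.4% above and 15.8% below).

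The log2 fold change was above 0 for 25 of the 37 members, against 47.3% of all genes, with a median of 0.15 against -0.02. The count above 0 was again 25 when TMM normalization was replaced by DESeq2 size factors or by total counts. It depended on the cultures, with 21 of 38 members tested (55.3%) above 0 without control replicate 3, 23 of 39 (59.0%) without knockdown replicate 1 or 3, and 27 of 37 (73.0%) without control replicate 1. Standard errors of the members ranged from 0.09 for *CDH2* to 0.60 for *PCDHB15*, so small changes in the low genes were not detectable at this depth. In these bulk libraries fewer cells of a type and less RNA per cell cannot be told apart.

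**Figure D1:**
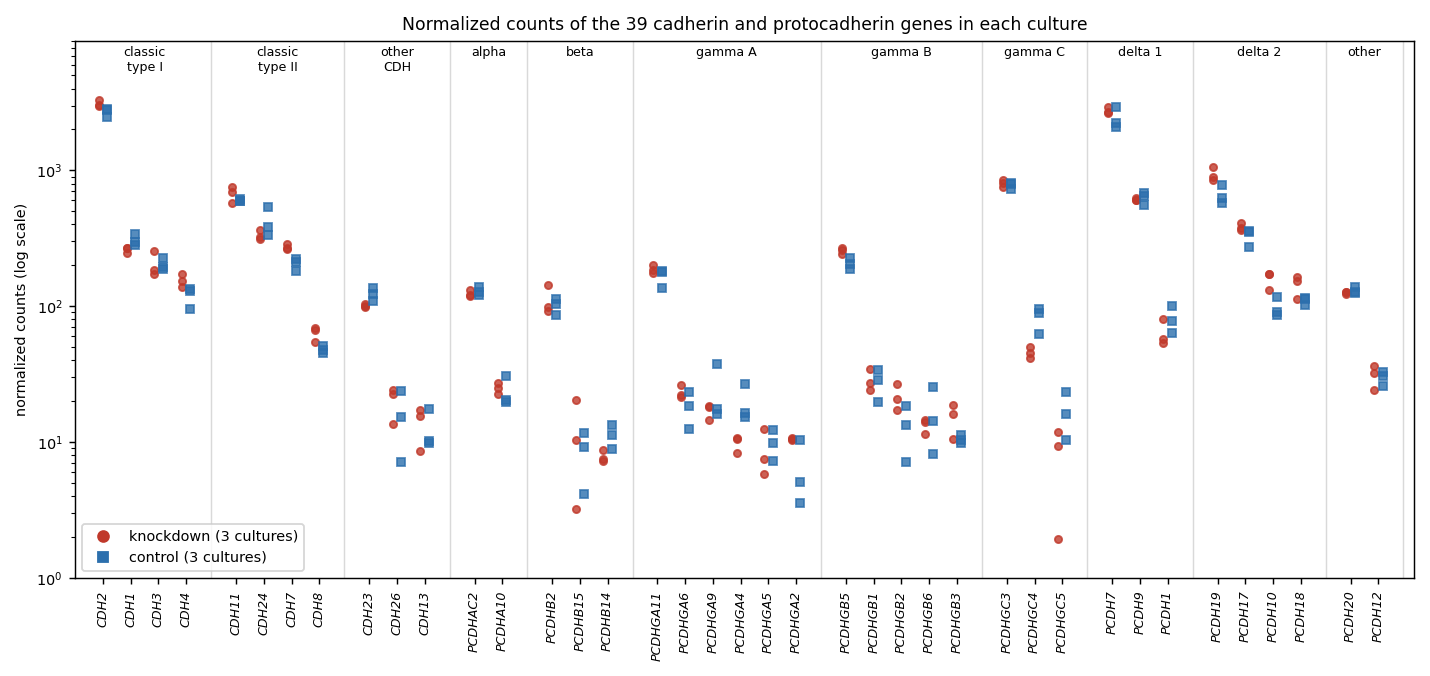
Normalized counts on a log axis for the 39 members in each of 3 knockdown (circles) and 3 control cultures (squares), arranged by class and by mean level. *CDH2* and *PCDH7* lie highest. Of 37 tested members, 9 lie above and 4 below the controls in all knockdown cultures, among them *PCDHGC4*, *PCDH10* and *PCDH19*, against 32.2% of all genes without overlap.

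Among the classic cadherins none was called by edgeR, DESeq2 or limma-voom. In edgeR 2 of 8 had an unadjusted p under 0.05, both higher, against 26.9% of all genes in either direction. *CDH2* was the most highly expressed member, with a mean of 338 normalized counts per kilobase of exon. *CDH1* stood at 46.6 per kilobase, *CDH24* at 100 and *CDH11* at 47.9. All levels per kilobase are means over the 6 cultures, divided by exon bases of GENCODE release 44 that no other cadherin or protocadherin gene shares. HEK293 cells thus expressed N-cadherin at a higher level per length than E-cadherin.

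*CDH2* counts were 3026, 3303 and 2986 after normalization in the knockdown cultures and 2789.7, 2458 and 2821 in the controls. All 3 knockdown values were above the controls. The means were 3105 ± 172 and 2689.6 ± 201 (SD, n = 3 each), and the log2 fold change of 0.21 (SE 0.09) did not pass the test (adjusted p = 0.17). *CDH1* had 245, 266 and 268 normalized counts in knockdown and 341, 295 and 283 in control cultures, with knockdown below control. These values did not overlap either, but the log2 fold change of -0.24 (SE 0.13) missed the threshold (adjusted p = 0.27).

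The ratio of *CDH2* to *CDH1* counts within each culture does not depend on library size. It was 12.4, 12.4 and 11.1 in the knockdown cultures and 8.19, 8.32 and 9.97 in the controls, a mean of 11.97 ± 0.73 against 8.83 ± 0.99 (SD, n = 3 each). The groups did not overlap. This ratio was chosen after its values were seen and was not tested.

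The other type I cadherins are *CDH3*, the placental cadherin, and *CDH4*, the retinal cadherin. *CDH3* had 204 ± 43.3 and 203 ± 20.5 normalized counts in knockdown and control cultures (log2 fold change 0.01, adjusted p = 0.98). *CDH4* had 138, 173 and 155 in knockdown against 95.9, 134 and 129.6 in control cultures. The knockdown values were all higher, yet the log2 fold change of 0.37 (SE 0.18) did not pass (adjusted p = 0.22).

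Type II cadherins mediate weaker, combinatorial adhesion, mostly in the nervous system and mesenchyme. *CDH7* came closest to a call among the classic cadherins, at 265, 286 and 268 normalized counts in knockdown and 212, 181 and 222 in control cultures. The groups did not overlap, and the log2 fold change was 0.41 (SE 0.14, adjusted p = 0.077). It was called in none of the 14 alternative analyses, where its adjusted p ranged from 0.053 to 0.27. *CDH11*, an osteoblast and mesenchymal cadherin, was higher in level and overlapped between the groups, at 670 ± 90.7 and 602 ± 14.4 (log2 fold change 0.15, adjusted p = 0.44).

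*CDH24* owed much of its difference to 1 culture. It had 321, 309.8 and 366 normalized counts in knockdown and 384, 540 and 334 in control cultures, the highest in control replicate 2. The log2 fold change was -0.34 (adjusted p = 0.23) and -0.11 without that culture (adjusted p = 0.60). *CDH8* was low, with 63.5 ± 7.46 against 47.9 ± 2.92 (log2 fold change 0.40, adjusted p = 0.25).

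Outside the classic group, *CDH23*, the tip-link cadherin of hair cells, had 100.5 ± 2.5 normalized counts in knockdown and 123 ± 12.8 in control cultures, with no overlap (log2 fold change -0.29, adjusted p = 0.29). *CDH13*, a cadherin anchored by lipid without a cytoplasmic tail, and *CDH26* were near the detection threshold, at 13.2 and 17.7 normalized counts on average. The kidney cadherin *CDH16* had 2 counts in control replicate 3 and 0 in every other culture. *CDH6*, a cadherin of nephron progenitors, had at most 2 counts in any culture, and *CDH5*, the endothelial cadherin, at most 1.

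**Figure D2:**
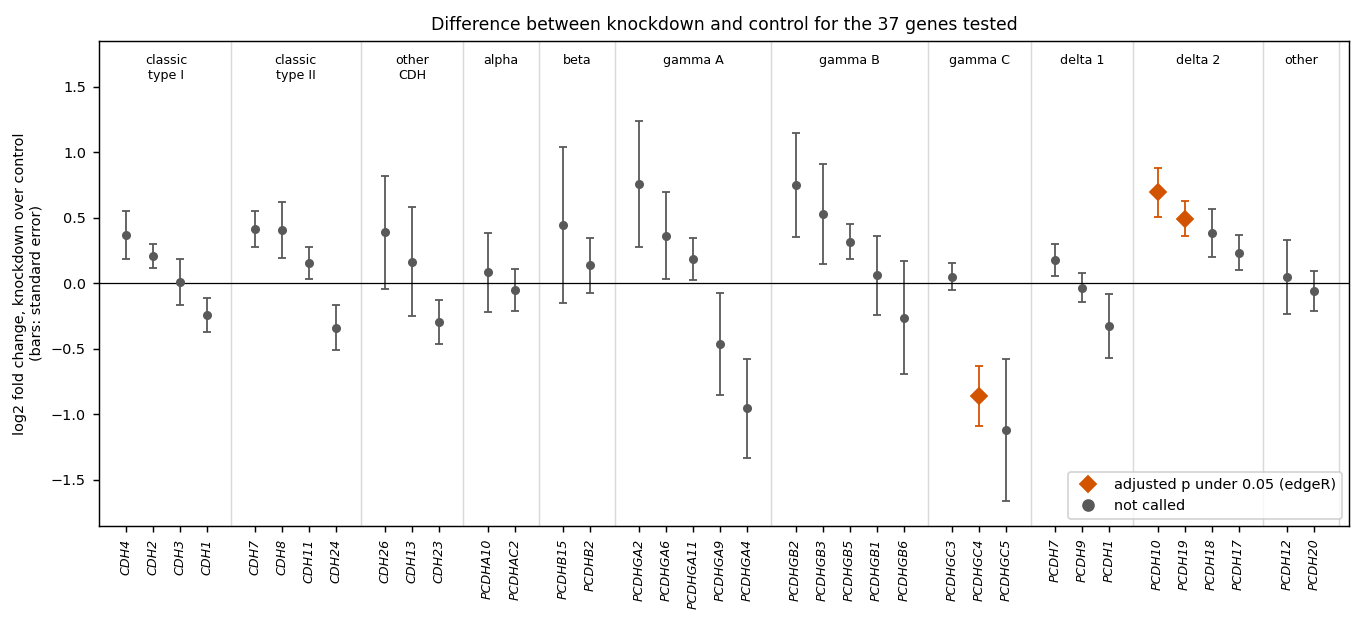
Log2 fold change of knockdown over control with its standard error for the 37 tested members, arranged by class. Diamonds mark the 3 members with an adjusted p under 0.05. All 4 tested delta 2 protocadherins, 2 of them called, lie above 0, against 25 of the 37 members and 47.3% of all genes.

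The clustered protocadherins occupied a few isoforms. All 3 clusters lie on 5q31, from the start of *PCDHA1* at chr5:140786136 to the end of *PCDHGC5* at chr5:141512975 (hg38, GENCODE release 44, plus strand). *PCDHGC3*, *PCDHGB5*, *PCDHGA11*, *PCDHAC2* and *PCDHB2* together took 75.9 to 82.7% of all clustered counts in each culture. *PCDHGC3* alone took 44.4% ± 2.41 in knockdown and 44.3% ± 1.06 in control cultures. In the alpha cluster *PCDHAC2* held 75.4% and 74.6% of the counts. *PCDHA4*, *PCDHB1* and *PCDHB12* had 0 counts in all 6 cultures. Isoforms of the alpha and gamma clusters share their last exons, and reads on these exons fit many genes, so the counts depend on a setting of the counting program that is not given in the sources used here.

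**Figure D3:**
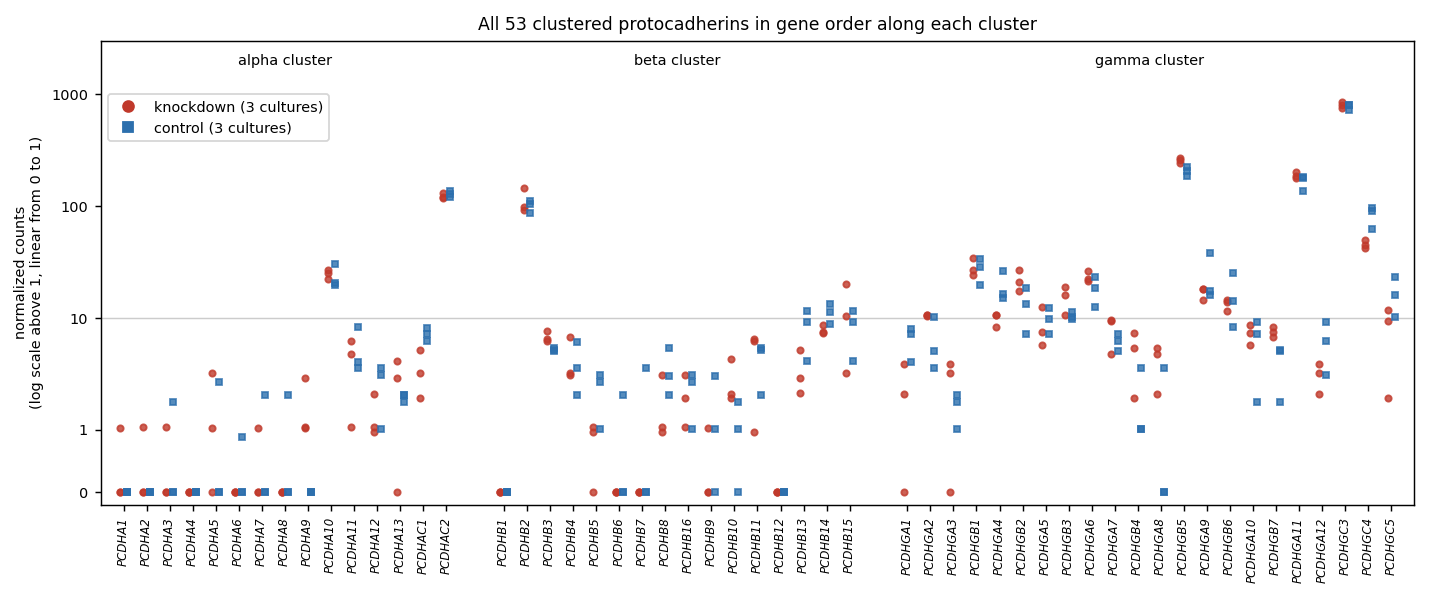
Normalized counts of all 53 clustered protocadherins in each culture, in gene order along the alpha, beta and gamma clusters, on an axis that is logarithmic above 1 and linear from 0 to 1. Circles are the 3 knockdown and squares the 3 control cultures, and the grey line marks 10. *PCDHAC2*, *PCDHB2*, *PCDHGB5*, *PCDHGA11* and *PCDHGC3* have the highest means, and *PCDHGC4* comes next and exceeds *PCDHB2* in control replicate 1.

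*PCDHGC4*, one of the 3 C-type isoforms at the end of the gamma cluster and known for its part in neuron survival, fell in knockdown cultures. It lies at chr5:141484997-141512975. Its counts were 52, 43 and 39 in the knockdown cultures and 88, 107 and 61 in the controls. After normalization these were 50.1, 44.9 and 41.9 against 89.8, 95.5 and 62.8. Every knockdown value was below every control value.

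The mean fell from 82.7 ± 17.5 to 45.6 ± 4.18 normalized counts (SD, n = 3 each), a fold of 0.552 and a log2 fold change of -0.86 (SE 0.23, adjusted p = 0.037). Without control replicate 2 the log2 fold change was -0.74 (adjusted p = 0.052). The call was also lost without control replicate 1 (adjusted p = 0.11) and without knockdown replicate 1, 2 or 3 (0.092, 0.13 and 0.15). It was made in 9 of the 14 alternative analyses, and the log2 fold change stayed between -1.01 and -0.74 in all of them.

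The other gamma C isoforms were not called. *PCDHGC3* had 853, 754 and 805 normalized counts in knockdown and 803, 727 and 799 in control cultures, which overlapped (log2 fold change 0.05, SE 0.10, adjusted p = 0.79). *PCDHGC4* therefore made up 5.54, 5.55 and 4.88% of the gamma C counts in knockdown and 9.80, 11.4 and 7.19% in control cultures. This share was lower in all 3 knockdown cultures and does not depend on library size. *PCDHGC5* had 2, 9 and 11 counts against 23, 18 and 10. Its log2 fold change of -1.12 had an SE of 0.54, and the groups overlapped (adjusted p = 0.21).

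Gamma B isoforms summed to more counts in knockdown cultures, though none was called by edgeR, DESeq2 or limma-voom. In edgeR 1 of 5 had an unadjusted p under 0.05, against 26.9% of all genes. The summed gamma B counts were 318, 352 and 374 after normalization in knockdown and 299.99, 253 and 283 in control cultures. The groups did not overlap. Their share of all clustered counts was 19.2% ± 1.42 and 15.9% ± 0.58 (SD, n = 3 each). Most of it was *PCDHGB5*, at 243, 258 and 269 against 205, 187 and 225, with no overlap (log2 fold change 0.32, SE 0.14, adjusted p = 0.16). *PCDHGB1* had 28.5 ± 5.27 and 27.3 ± 7.15 normalized counts, and *PCDHGB2* had 21.7 ± 4.8 and 12.96 ± 5.62. The log2 fold change was above 0 for 4 of the 5 members, against 47.3% of all genes. That count was 3 without knockdown replicate 3 or control replicate 3, and 5 without control replicate 1. The summed classic cadherins also lay above the controls, at 4895, 5356 and 4988.5 normalized counts in knockdown and 4693, 4489 and 4634 in control cultures. So did the summed delta 2 protocadherins. No sum was tested.

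No gamma A isoform was called by edgeR, DESeq2 or limma-voom, and 1 of 5 had an unadjusted p under 0.05 in edgeR, against 26.9% of all genes. *PCDHGA11*, the main one, had 176, 201 and 185 normalized counts in knockdown and 181, 137 and 178 in control cultures, which overlapped (log2 fold change 0.19, adjusted p = 0.49). *PCDHGA4* had 11, 8 and 10 counts against 26, 17 and 16. Its values did not overlap, with a log2 fold change of -0.95 (SE 0.38, adjusted p = 0.13). *PCDHGA6* had 23.2 ± 2.48 and 18.2 ± 5.5 normalized counts, and *PCDHGA9* had 17.1 ± 2.12 and 23.8 ± 12.1, with the highest value in control replicate 1.

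The summed counts of the alpha and of the beta cluster overlapped between the groups. In knockdown and control cultures they were 165 ± 9.71 and 172 ± 6.54 for alpha and 157 ± 19.9 and 154 ± 13.7 for beta. *PCDHAC2*, the alpha C-type isoform used by serotonergic neurons for tiling, had 124 ± 6.97 and 128 ± 8.56 normalized counts (log2 fold change -0.05, adjusted p = 0.87). *PCDHA10* was the second alpha member, at 24.9 ± 2.29 and 23.6 ± 6.12. *PCDHB2* had 111 ± 28.2 and 101 ± 13.03 (log2 fold change 0.14, adjusted p = 0.72). Summed over all clustered genes, knockdown and control cultures had 1811 ± 38.6 and 1751 ± 89.8 normalized counts, a ratio of 1.03.

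Several genes sat at the count threshold. Just inside it, *PCDHB14* had 9, 7 and 7 counts in knockdown and 11, 10 and 13 in control cultures, *PCDHB15* had 21, 10 and 3 against 9, 13 and 4, and *PCDHGA5* had 6, 12 and 7 against 12, 11 and 7. Just outside it, *PCDHB13* had 3, 5 and 2 counts against 9, 13 and 4, and *PCDH11X* had 13, 8 and 5 against 3, 5 and 8. These counts are too few to tell the groups apart gene by gene.

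The delta 2 protocadherins held 2 of the 3 calls, 2 higher of 4 tested, against 5.40% of all genes called higher. Both calls were lost on leaving out knockdown replicate 1, 2 or 3. Delta 2 protocadherins bind WAVE complex proteins through their cytoplasmic tails. *PCDH10*, a regulator of axon growth and migration on chromosome 4 (chr4:133149294-133208606), had 137, 165 and 160 counts in the knockdown cultures and 114, 102 and 84 in the controls. After normalization these were 132, 172 and 172 against 116, 91.0 and 86.4, with every knockdown value above every control.

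The *PCDH10* mean rose from 97.9 ± 16.1 to 159 ± 23.0 normalized counts (SD, n = 3 each), a fold of 1.62 and a log2 fold change of 0.69 (SE 0.19, adjusted p = 0.039). Without control replicate 2 it was 0.64 (adjusted p = 0.035). The call was lost without control replicate 3 (0.068 as the adjusted p) and without knockdown replicate 1, 2 or 3 (0.055, 0.16 and 0.16).

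*PCDH19* works as an adhesion protein with N-cadherin, and variants in it cause an epilepsy that mainly affects females. The gene lies at chrX:100291644-100410273. Its normalized counts were 845, 1054 and 896 in the knockdown cultures and 631, 575 and 783 in the controls, again without overlap. The mean rose from 663 ± 108 to 932 ± 109 (SD, n = 3 each), a fold of 1.41 and a log2 fold change of 0.49 (SE 0.13, adjusted p = 0.040).

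Without control replicate 2 the *PCDH19* log2 fold change was 0.40 (adjusted p = 0.033). The call was lost without control replicate 1 (adjusted p = 0.13) and without knockdown replicate 1, 2 or 3 (0.074, 0.19 and 0.11). *PCDH10* and *PCDH19* were each called in 10 of the 14 alternative analyses.

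**Figure D4:**
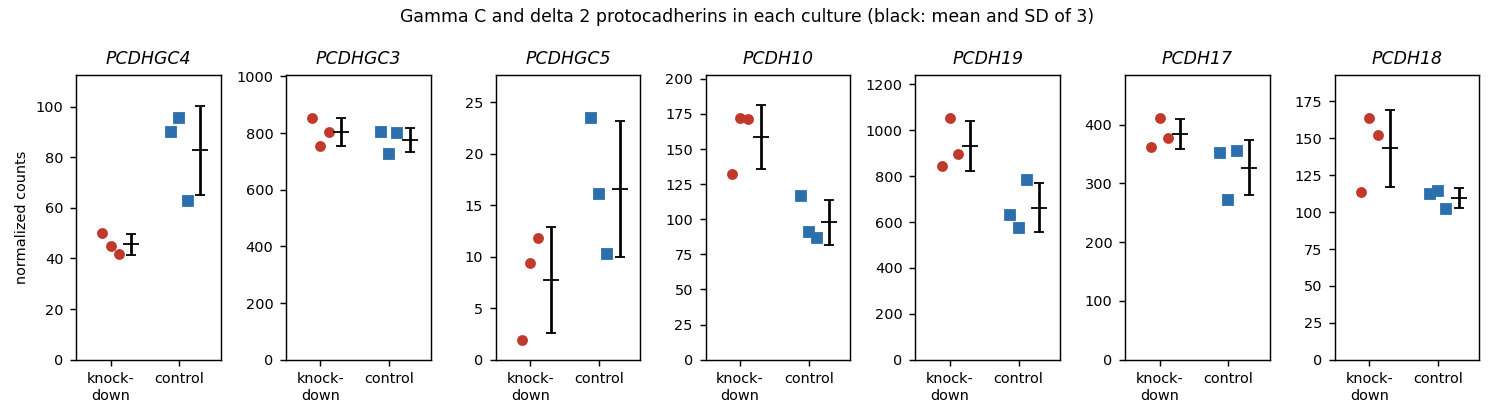
Normalized counts of the gamma C and delta 2 protocadherins in the knockdown (circles) and control cultures (squares), with the mean and SD of 3 in black, each panel on its own axis from 0. *PCDHGC4* is lower in all 3 knockdown cultures than in any control, and *PCDH10*, *PCDH19* and, by a narrow margin, *PCDH17* are higher.

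The other delta 2 members were not called. *PCDH17* had 362, 411 and 378 normalized counts in knockdown and 352, 272 and 355 in control cultures. The knockdown values were higher by a narrow margin (log2 fold change 0.23, SE 0.14, adjusted p = 0.30). *PCDH18* had 143 ± 26.2 and 109 ± 6.65, which overlapped (log2 fold change 0.39, SE 0.18, adjusted p = 0.20). Summed over the class, which includes *PCDH8* at 7 counts or fewer in each culture, the normalized counts were 1460.3, 1804 and 1605 against 1213, 1059 and 1333. The summed ratio was 1.35.

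Delta 1 protocadherins, which bind a protein phosphatase, were not called. *PCDH7* was the second most highly counted member, at 2687, 2903 and 2624 normalized counts in knockdown and 2221, 2097 and 2935 in control cultures. Control replicate 3 was above all the knockdown cultures, and the log2 fold change was 0.18 (SE 0.12, adjusted p = 0.38). Without control replicate 3 *PCDH7* was called, at 0.35 (adjusted p = 0.035). *PCDH9* had 614 ± 15.3 and 628 ± 67.1 (log2 fold change -0.03, adjusted p = 0.88). *PCDH1* had 64.0 ± 14.8 and 80.1 ± 18.5 (log2 fold change -0.32, adjusted p = 0.43).

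*PCDH20* and *PCDH12*, which belong to neither delta group, overlapped between knockdown and control cultures. *PCDH20* had 122, 127 and 127 normalized counts against 126, 138 and 128 (log2 fold change -0.06, adjusted p = 0.85), and *PCDH12*, a vascular protocadherin, had 30.9 ± 6.3 and 29.8 ± 3.72 (log2 fold change 0.05, adjusted p = 0.94).

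**Figure D5:**
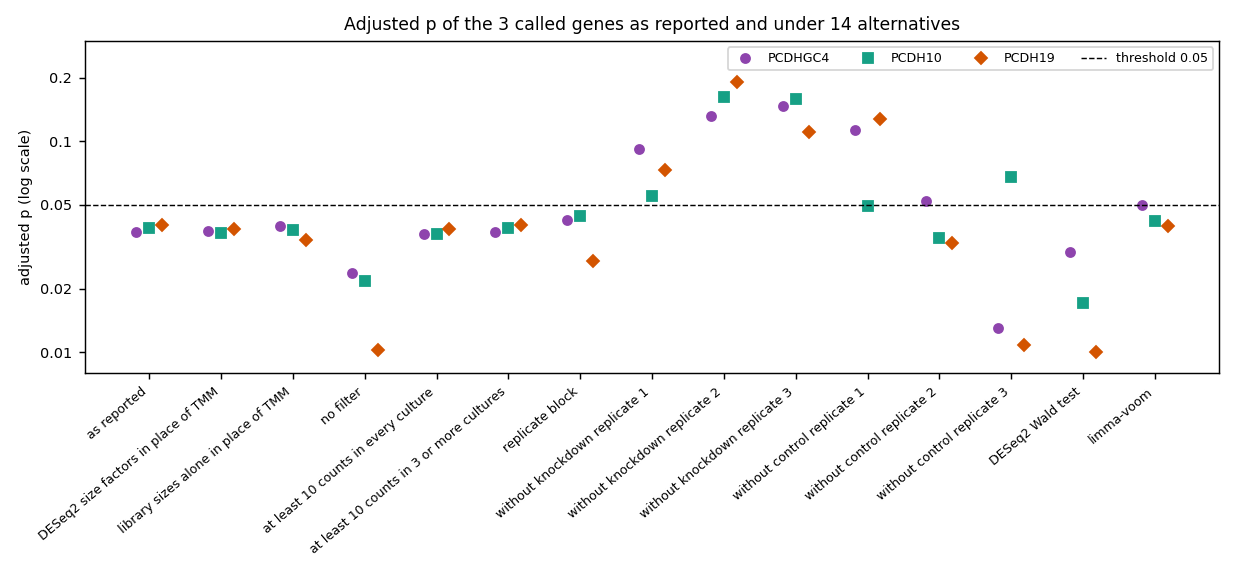
Adjusted p on a log axis for *PCDHGC4*, *PCDH10* and *PCDH19* as reported and in the 14 alternative analyses, with the threshold of 0.05 dashed. The values above the line all come from analyses that leave out 1 culture.

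The proteins that members act with were counted from lists, each read against the 10% of all genes called. Of 17 tested adherens junction partners 3 were lower and 0 higher, namely beta-catenin (*CTNNB1*, log2 fold change -0.32, adjusted p = 0.032), plakoglobin (*JUP*, -0.37, 0.027) and vinculin (*VCL*, -0.35, 0.024). Of the 17 partners 5, these 3 among them, lay below the controls without overlap and 0 above, against 15.8% and 16.4% of all genes. The 3 genes were each called in 9 of the 14 alternative analyses. Their calls were lost without knockdown replicate 1, 2 or 3 or control replicate 1. There the adjusted p reached 0.18 for *CTNNB1*, 0.15 for *JUP* and 0.16 for *VCL*. No partner was called higher by DESeq2 or limma-voom, and none had an unadjusted p under 0.05 upward in edgeR. Of 8 tested desmosomal genes 2 were higher, the desmosome component *PERP* (1.07, adjusted p = 0.0010) and plakophilin 2 (*PKP2*, 0.37, 0.038). *PERP* was called in all 14 alternative analyses and *PKP2* in 9, and *PKP2* lost its call without the same cultures (adjusted p up to 0.16). Without control replicate 2 the desmosomal list had 3 lower and 2 higher, when 1238 of all 15083 genes tested were lower and 1274 higher.

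Of 18 tested cadherin superfamily genes outside the member list 2 were lower and 2 were higher. *DCHS1*, the ligand of *FAT4*, fell by 0.72 on the log2 scale (adjusted p = 0.023), and *CDHR1*, a photoreceptor cadherin, fell by 0.75 (adjusted p = 0.013). The planar polarity cadherin *CELSR1* rose by 0.65 (adjusted p = 0.0018) and calsyntenin 2 (*CLSTN2*) by 0.58 (adjusted p = 0.030). *CELSR1* was called in all 14 alternatives, whereas *DCHS1* and *CLSTN2* lost their calls without knockdown replicate 1, 2 or 3 or control replicate 1 (adjusted p up to 0.11 and 0.15), and *CDHR1* without knockdown replicate 1 or 2 or control replicate 1 (up to 0.074). Of 15 protocadherin signalling partners 2 were lower, the WAVE complex genes *WASF1* (-0.37, adjusted p = 0.023) and *WASF3* (-0.77, adjusted p = 0.00091). *WASF3* was called in all 14 alternatives and *WASF1* in 9, and *WASF1* lost its call without knockdown replicate 1, 2 or 3 or control replicate 1 (adjusted p up to 0.13).

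Of 12 genes for cadherin maturation and cleavage 2 were lower and 1 was higher. *FURIN*, a protease that removes the cadherin prodomain, fell by 0.66 on the log2 scale (adjusted p = 0.0017), the gamma-secretase subunit *PSEN2* fell by 0.72 (adjusted p = 0.0034), and the secretase *BACE1* rose by 0.44 (adjusted p = 0.0084). *FURIN* and *PSEN2* were called in all 14 alternatives, and *BACE1* lost its call without knockdown replicate 2 (adjusted p = 0.054) or 3 (0.055). Without control replicate 2 this list had 4 lower and 3 higher, and the signalling list 4 lower and 2 higher. These counts stand beside 1238 lower and 1274 higher of all 15083 genes tested without that culture, more than with every culture. Of 14 repressors and activators of cadherin genes, 1 was called by edgeR, *TCF3*, the E2A factor that can repress *CDH1*, which rose by 0.76 (adjusted p = 0.00044) and was called in all 14 alternatives. DESeq2 and limma-voom each called 1 lower and 1 higher in this list, and edgeR without control replicate 2 called 1 lower and 3 higher.

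None of 20 regulators of the clustered promoters, among them *CTCF*, the cohesin subunits, *SMCHD1* and DNA methyltransferases, was called by edgeR or limma-voom. DESeq2 called 1, which was higher. In edgeR 5 had an unadjusted p under 0.05, 3 lower and 2 higher, against 26.9% of all genes. Without control replicate 2 the edgeR count was 4, with 3 lower and 1 higher, while the calls over all genes also rose. *CTCF* had 2142 and 1992 normalized counts on average in knockdown and control cultures (log2 fold change 0.10, SE 0.08, adjusted p = 0.45), and *SMCHD1* 4939 and 5107 (-0.05, adjusted p = 0.82). *CTCF* and *SMCHD1* were singled out after their values were seen. Of the 5 regulators with an unadjusted p under 0.05, *SMC1A* (0.41, adjusted p = 0.10) and *WIZ* (0.23, 0.14) were higher. *RAD21* (-0.25, adjusted p = 0.090), *PDS5A* (-0.25, 0.10) and *DNMT3A* (-0.27, 0.17) were lower. Of the 20 regulators, 5 lay above and 4 below the controls without overlap, against 16.4% and 15.8% of all genes.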

How the data were processed

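RNA-seq counts of 6 HEK293 cultures were analysed. The authors deposited whole-number read counts per gene without normalization. The submitters' processing notes name FastQC 0.11.9, Trim Galore 0.6.6, STAR 2.7.9a, featureCounts 2.0.1 and hg38, and the library preparation is labelled as stranded mRNA. The annotation, strand setting and treatment of shared or multi-mapping reads are not given in the sources used here, so counts of near-identical clustered protocadherins are uncertain.

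After filterByExpr and TMM normalization, knockdown and control cultures were compared by the robust quasi-likelihood F test of edgeR 4.0.16 without a block (R 4.3.3), with Benjamini-Hochberg adjustment over all 14877 genes tested and calls under 0.05. For normalized counts, each count was scaled by the ratio of the mean effective library size to that of its culture. SE is the log2 fold change divided by the root of F. DESeq2 1.42.0 and limma-voom (limma 3.58.1) were 2 of 14 alternatives. All pipelines were tested on simulated data.

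The text names called members, the 3 highest of each class, *CDH1* and *CDH2*, genes at the count threshold and called genes of the partner lists (up to 5 a list). Genes outside this rule, *CDH4*, *CDH5*, *CDH6*, *CDH8*, *CDH16*, *PCDHGA4*, *PCDHGB4*, *PCDH8*, *PCDH18*, *CTCF*, *SMCHD1*, *SMC1A*, *WIZ*, *RAD21*, *PDS5A*, *DNMT3A*, *CD14*, *CD74* and those at 0, were named after their values were seen. Members and lists were chosen with earlier results of these data known. Positions came from GENCODE release 44 and promoters from RefSeq. Figures were drawn with matplotlib.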

Additional observations from a re-analysis of the deposited data

How the results depend on the processing

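The counts of calls depended on the cultures included. Leaving out 1 culture at a time gave 233 to 1238 genes lower and 289 to 1274 higher of all genes, 0 to 1 members lower and 0 to 2 members higher. Fewer calls over all genes came without knockdown replicate 1 (252 lower, 341 higher), 2 (247, 289) or 3 (233, 297) or control replicate 1 (294, 375), and more without control replicate 2 (1238, 1274) or 3 (994, 1087). No member was called higher without any one knockdown replicate, and *PCDH10* alone without control replicate 1. No member was lower without knockdown replicate 1, 2 or 3 or control replicate 1 or 2. Other normalizations, filters, DESeq2 and limma-voom kept the counts of members at 1 and 2. Over the 510 member results of the alternatives, 13 lost a call, 1 gained one (*PCDH7*) and 18 changed sign in 11 members that were not called. *CDH3* was -0.0041 with the replicate block and -0.0037 with limma-voom. Leaving out 1 culture at a time moved the log2 fold change over the range -0.18 to 0.12 for *CDH3*, -0.034 to 0.48 for *CDH13*, -0.022 to 0.31 for *PCDHA10*, -0.10 to 0.0019 for *PCDHAC2*, -0.085 to 0.26 for *PCDHB2*, -0.29 to 0.87 for *PCDHB15*, -0.69 to 0.027 for *PCDHGA9*, -0.12 to 0.23 for *PCDHGB1*, -0.56 to 0.22 for *PCDHGB6*, -0.12 to 0.028 for *PCDH9* and -0.087 to 0.20 for *PCDH12*; these members were called under no setting.

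The counts gave no sign of pairing by the replicate numbers of the titles. Deviations of same-numbered knockdown and control replicates correlated at -0.20, -0.11 and -0.04, and no knockdown replicate correlated best with its own number. KD-1 and NC-1, which share a number in their column names, correlated at -0.01. These values cannot tell whether cultures were handled in pairs. With the replicate block 619 genes were lower and 714 higher, and the members again numbered 1 and 2 called, with adjusted p of 0.042 for *PCDHGC4*, 0.044 for *PCDH10* and 0.027 for *PCDH19*. The block ended the calls of *CTNNB1* (adjusted p = 0.12), *JUP* (0.057), *VCL* (0.068), *PKP2* (0.097) and *WASF1* (0.066), and of no other partner or marker gene named. With 3 cultures a group and standard errors of up to 0.60, changes in the low isoforms were not detectable.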
